A study of Sus scrofa with 4 samples.

Results

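The semaphorin, plexin, neuropilin, ephrin, Eph receptor and SLIT genes of the pig were followed here through porcine pancreatic ductal organoids (PPDO) and the cell classes of primary pancreas. They were taken by name alone, as the genes called SEMA3 to SEMA7, PLXN, NRP1 or NRP2, EPHA or EPHB, EFNA or EFNB and SLIT1 to SLIT3 in the feature tables, and 54 of 30282 gene identifiers had such a name. By role, these were 4 ephrins-A, 3 ephrins-B, 9 EphA receptors, 5 EphB receptors, 7 class 3 semaphorins, 6 class 4 semaphorins, 7 semaphorins of classes 5 to 7, 2 neuropilins, 8 plexins and 3 SLIT ligands. No feature was named EFNA3 or PLXNB2, so these genes were not followed. PPDO were raised from ducts picked by hand out of digested pancreas and embedded in Cultrex, in a medium with WNT3A, R-spondin-1, noggin, FGF10, EGF, the TGF-beta receptor inhibitor A83-01, prostaglandin E2, gastrin and the ROCK inhibitor Y-27632. Droplet single-cell RNA sequencing was available for 2 libraries of PPDO and 2 libraries of primary pancreas. The PPDO lines came from pigs of different age and had been passaged a different number of times. Of the pancreata, which came from a wild-type pig and a pig with an INS-eGFP transgene, one was enriched for ducts by picking and the other was a pool of sorted DBA-binding cells, INS-eGFP-positive cells and unselected cells. No label ties a library to an age, a passage or a genotype, and p-values measure only the spread between these 4 libraries.

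Guidance genes were named for the steering of axons, but the same ligands and receptors position cells in epithelia and vessels. Ephrins are ligands held on the surface of a neighbouring cell and are read by the Eph receptor tyrosine kinases, with ephrins-A bound mainly by EphA receptors and ephrins-B mainly by EphB receptors. Class 3 semaphorins are secreted and signal through plexins with neuropilins as co-receptors, whereas most other classes are membrane-bound and bind plexins directly. SLIT proteins are secreted ligands of the ROBO receptors. In the pancreas, these families are known for the patterning of vessels and nerves and for the arrangement of epithelial and islet cells.

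The PPDO libraries held 366263520 and 316018482 unique molecular identifiers (UMIs, counted molecules), and the primary libraries held 87043513 and 138928395. After filtering, 8885 and 7337 PPDO cells and 5671 and 4261 primary cells remained. Primary cells were clustered without the guidance genes, and clusters were called ductal-like, endothelial-like and so on from marker genes, which gave 2170 and 1171 ductal-like cells in primary pancreas 1 and 2. The larger stellate-like cluster was led by ITIH4 and the smooth muscle genes MYH11 and ACTA2, with 438 and 41 cells in these libraries. The other was led by DCN and LUM, with 305 and 7 cells, so most cells called stellate-like were of the first. The summed level of 9 ductal markers was 29780 and 33350 CPM (UMIs of a gene scaled to a common total per summed library) in ductal-like cells but 991 and 887 CPM in PPDO, over all PPDO cells together. KRT19 and MUC1 are in the list but had no matched name. In PPDO 7 basal markers summed to 8414 and 10990 CPM, 7 cornified-epithelium markers to 1476 and 3461 CPM and 14 glycolysis genes to 13250 and 14580 CPM, beside 113 and 51.7, 0.48 and 0.64, and 1871 and 2010 CPM in the ductal-like sums. These lists move with the comparison of PPDO and ductal-like cells, and their part in its results was not tested. Primary libraries were clustered together without scaling per library, and ductal-like clusters were not shared between them apart from 1 cell. An unnamed cluster whose best list was ductal held 149 and 17 cells of primary pancreas 1 and 2. At the finer clustering resolution of 1.0, a ductal-like cluster held 27 and 17 cells. In primary pancreas 1 a cluster led by OSGIN1 held 59.1% of the ductal-like cells. Any 2 libraries shared between 10 and 23 cell barcodes.

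PPDO differed from ductal-like cells at 30 of the 53 guidance genes that could be tested, with 15 higher and 15 lower in PPDO. UMIs were summed per library and compared with edgeR at an adjusted p under 0.05 (Benjamini-Hochberg over 23531 genes, 2 sums against 2). The share of all genes called was 43.5%, with 22.7% higher and 20.8% lower, and the difference between these shares and the guidance genes' counts was not tested. The CPM of the groups did not overlap for 76.2% of all genes. A filter left out genes with too few counts. EFNA2 and SEMA3G, both called lower, passed it only with their ductal-like counts, so their calls are no support for a fall. The median log2 fold change of the guidance genes was 0.07, beside 0.01 over all genes tested. By role, the class 3 and class 4 semaphorins and the ephrins-B that passed were mostly higher, while every neuropilin and SLIT gene and every class 5 to 7 semaphorin that passed was lower. No role was tested against the shares over all genes, and each holds only 2 to 9 tested genes. The fold changes use TMM scaling factors. With library totals alone the median over all genes fell to -0.45, so small positive fold changes depend on the scaling. Then 11 guidance genes were called higher and 20 lower, beside 3265 and 6927 of all 23531 genes. Leaving out a PPDO library leaves an arm of 1, whose spread is assumed to be that of the ductal-like sums, and the share of all genes called then drops to 23.3% without PPDO 1 and 21.4% without PPDO 2. In these fits calls were lost for EFNA1, EFNA2, EFNB2, EPHA4, EPHB1, PLXNA1, PLXNA4, PLXNB1, SEMA3A, SEMA3G and SEMA4C whichever was left out, for EFNB1, EPHB2, SEMA3C and SEMA4B without PPDO 2, and for SEMA3E without PPDO 1. No lost call changed direction, with EFNA1 at -1.75 and -1.64 and EPHA4 at 3.29 and 3.47 on the log2 scale without PPDO 1 and PPDO 2. The calls of PLXNB1, SEMA3G and SEMA4C were also lost without primary pancreas 1. Culture, age, passage and the dissociation and sorting of the pancreas differ together between the groups and cannot be told apart.

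**Figure D1:**
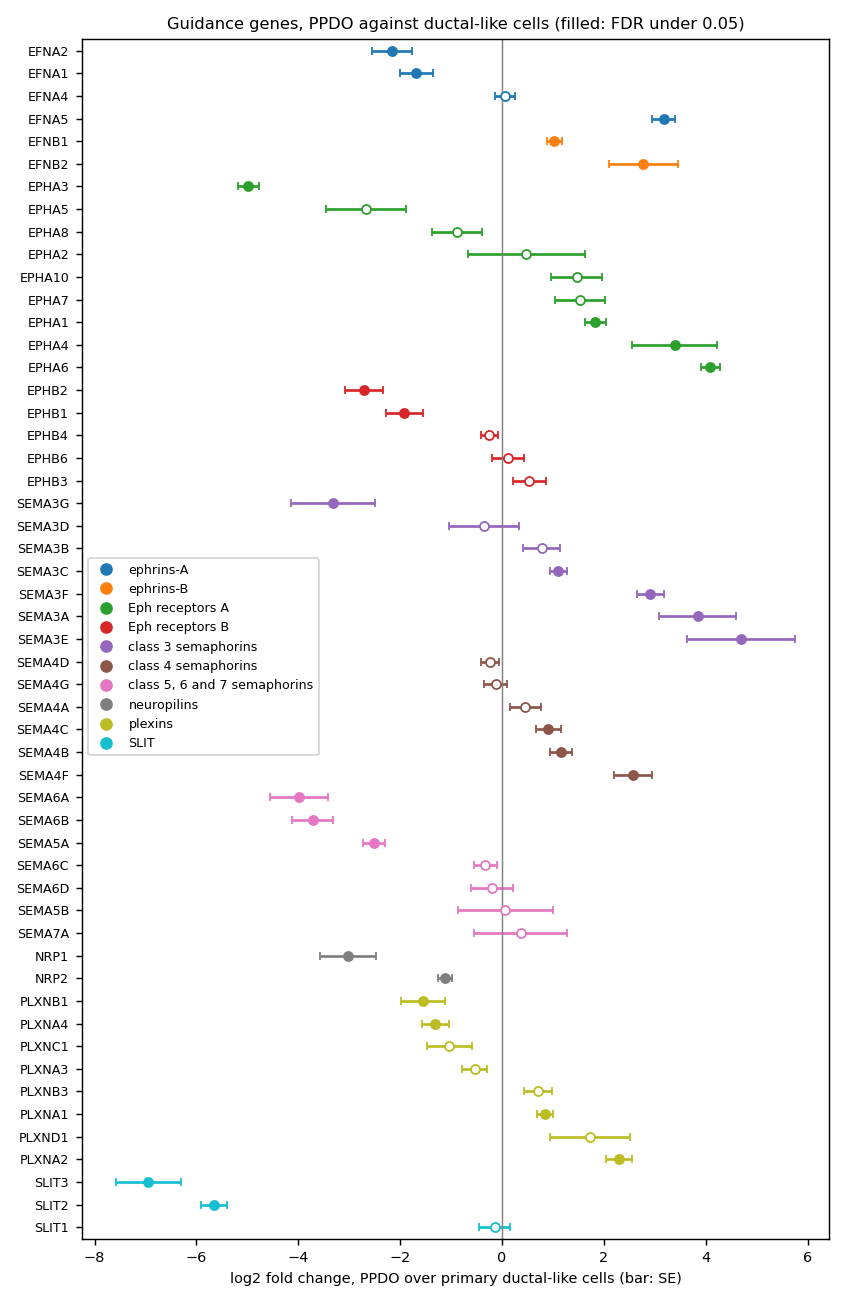
Log2 fold change of 53 guidance genes in PPDO over primary ductal-like cells, with the SE as a bar, grouped and coloured by role and filled where the edgeR adjusted p was under 0.05. SLIT3 (-6.94) and SLIT2 (-5.66) lie farthest to the left and SEMA3E (4.70) and EPHA6 (4.09) farthest to the right.

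The widest gap was in the SLIT ligands. SLIT2 had 2.52 and 1.65 CPM in PPDO 1 and 2 and 137 and 151 CPM in ductal-like cells of primary pancreas 1 and 2. SLIT3 had 2.17 and 2.27 CPM in PPDO and 509 and 213 CPM in ductal-like cells. The groups were far apart for both, with log2 fold changes of -5.66 (SE 0.26, edgeR adjusted p = 0.000547) for SLIT2 and -6.94 (SE 0.64, edgeR adjusted p = 0.00224) for SLIT3. SLIT1, the ligand best known from the brain, was low everywhere in this comparison, at 0.777 and 0.732 CPM in PPDO and 1.02 and 1.28 CPM in ductal-like cells, and did not pass (edgeR adjusted p = 0.741).

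SLIT2 and SLIT3 were also abundant in stellate-like and Schwann-like cells. SLIT2 stood at 575 CPM in stellate-like cells and 772 CPM in Schwann-like cells of primary pancreas 1, and SLIT3 at 945 and 509 CPM. Immune-like cells held 6.01 and 1.34 CPM of SLIT2 and 20.4 and 3.36 CPM of SLIT3. Acinar-like cells held 5.16 and 7.92 CPM of SLIT2 but 214 and 122 CPM of SLIT3, so for SLIT3 the acinar-like level of primary pancreas 1 was as high as the ductal-like level of primary pancreas 2. The 13 acinar markers summed to 941 and 630 CPM in the ductal-like sums, and the 11 stellate markers summed to 61.3 CPM in ductal-like cells of primary pancreas 1, where 10 reached 1 CPM, and to 4.04 CPM in those of primary pancreas 2, where none did, and the 8 Schwann markers to 21.6 and 46.4 CPM. The part of these cells' RNA in the ductal-like SLIT values was not tested. SLIT2 was at 133, 181, 132, 146 and 314 CPM in the 5 ductal-like clusters with at least 50 cells in their library, so it was present in all of them.

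Of the ROBO receptors, ROBO1 and ROBO2 were higher in PPDO and ROBO3 and ROBO4 lower. ROBO1, a receptor for SLIT ligands, rose from 3.0 and 5.24 CPM in ductal-like cells to 106 and 154 CPM in PPDO (log2 fold change 5.48, SE 0.36, edgeR adjusted p = 0.00105). ROBO2, its close relative, rose from 4.89 and 16.9 CPM to 228 and 261 CPM (log2 fold change 5.01, SE 0.60, edgeR adjusted p = 0.00419). No PPDO library overlapped a ductal-like sum for either receptor. ROBO3, a divergent member known from commissural axons and named here after its values were seen, had 11 and 6 UMIs in PPDO and 13 and 13 in the ductal-like sums (log2 fold change -3.25, SE 0.48, edgeR adjusted p = 0.00711), and its call was lost without either PPDO library. ROBO4, the endothelial member, had 0 and 1 UMIs in PPDO and 43 and 2 in ductal-like cells. It was among the leading genes of the endothelial-like cluster led by DYSF, which held 673 cells of primary pancreas 1. The part of endothelial RNA in the ductal-like ROBO4 counts was not tested. The ductal-like level was 371 times that of PPDO from pooled counts, with an exact binomial 95% interval of 63.3 to 14980 that covers counting error only. Primary pancreas 1 gave 43 of the 45 UMIs, and without it the ratio was 45.1 (interval 2.35 to 2660). The call was lost when either PPDO library was left out. ROBO3 and ROBO4 passed the low-count filter only through their ductal-like counts, so their calls are no support for a fall.

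**Figure D2:**
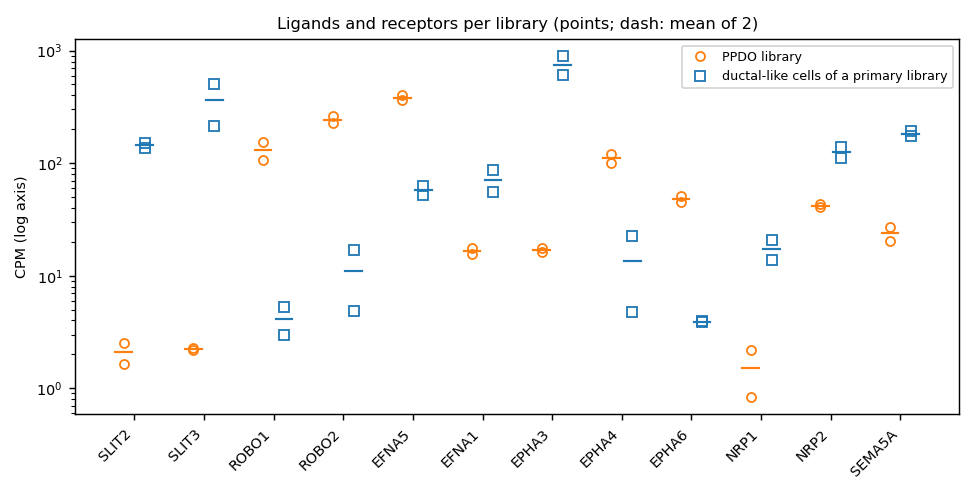
CPM of ligands and receptors on a log axis, with a circle for each PPDO library, a square for the ductal-like cells of each primary library and a dash at the mean of 2. SLIT2 and SLIT3 lie near 2 CPM in PPDO and above 130 CPM in ductal-like cells, whereas ROBO1 and ROBO2 lie above 100 CPM in PPDO and below 20 CPM in ductal-like cells.

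Of the 9 EphA receptors, EPHA6, EPHA4 and EPHA1 were higher in PPDO, EPHA3 was lower and 5 did not pass. Of the 4 ephrins-A, EFNA5 was higher, EFNA1 and EFNA2 were lower and EFNA4 did not pass. For both roles, the shares over all genes were 22.7% higher and 20.8% lower. EPHA3, an ephrin-A receptor prominent in developing mesenchyme and brain, had 16.2 and 17.6 CPM in PPDO and 602 and 887 CPM in the ductal-like sums (log2 fold change -4.98, SE 0.20, edgeR adjusted p = 0.000436). Immune-like cells held 20.4 and 2.69 CPM of EPHA3 and endothelial-like cells 3.57 and 1.03 CPM, as the level in classes with little of it. EPHA3 was at 578 CPM or more in the 5 clusters called ductal-like, and at 196 CPM in a shallow cluster of primary pancreas 1 led by TCN1 that was left unnamed for its depth although 7 ductal markers passed the fold for naming, and at 1415 CPM in the small cluster of primary pancreas 2 led by SPON1 and TMEM200A after a microRNA gene. It was highest in the ductal-like class in both primary libraries.

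EPHA6, best known from the nervous system, had 51.5 and 45.4 CPM in PPDO and 3.92 and 3.84 CPM in the ductal-like sums (log2 fold change 4.09, SE 0.19, edgeR adjusted p = 0.000534). No primary class with at least 50 cells reached 10 CPM of EPHA6. EPHA4, which binds ephrins of both classes, had 121 and 101 CPM in PPDO and 22.5 and 4.72 CPM in the ductal-like sums (log2 fold change 3.39, SE 0.84, edgeR adjusted p = 0.0307). The ductal-like values were unequal, and the call was lost without either PPDO library. Over the 16 alternatives that tested EPHA4, its log2 fold change ran from 2.62 to 5.08. EPHA1, an epithelial receptor, had 34.4 and 31.0 CPM in PPDO and 13.4 and 11.6 CPM in the ductal-like sums (log2 fold change 1.83, SE 0.21, edgeR adjusted p = 0.00363). EPHA3 and EPHA6 both lie on chromosome 13 of Sscrofa11.1 in the RefSeq table, at chr13:166592492-166942791 and chr13:162568835-163445722.

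EPHA2, an epithelial receptor of ephrins-A, did not pass. It had 29.2 and 26.98 CPM in PPDO and 47.9 and 3.52 CPM in ductal-like cells, so the ductal-like values spanned those of PPDO (log2 fold change 0.47, SE 1.15, edgeR adjusted p = 0.764). The source of this gap between the primary libraries was not tested. EPHA2 was at 60.6 CPM in the cluster led by OSGIN1, beside 23.8 and 4.86 CPM in the other ductal-like clusters of primary pancreas 1. Without that cluster, and likewise without primary pancreas 1, EPHA2 was called higher in PPDO. EPHA5 (log2 fold change -2.67, edgeR adjusted p = 0.05), EPHA7, EPHA8 and EPHA10 did not pass either, and each stayed under 7 CPM in every library of both groups. The EPHA5 value lies at the threshold, and it was called lower in 7 of the 15 alternatives that tested it, among them DESeq2 and the replicate block (adjusted p from 0.0155 to 0.237 over the 15). EPHA7 was called higher in 5 of 16, DESeq2 among them (adjusted p from 0.011 to 0.294).

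EFNA5, a lipid-anchored ligand of EphA receptors, had 400.2 and 363 CPM in PPDO and 63.0 and 51.7 CPM in the ductal-like sums (log2 fold change 3.17, SE 0.23, edgeR adjusted p = 0.00127). EFNA1, the ligand of EPHA2 in epithelia and vessels, had 17.5 and 15.4 CPM in PPDO and 86.8 and 55.3 CPM in the ductal-like sums (log2 fold change -1.69, SE 0.32, edgeR adjusted p = 0.0154). The EFNA1 call was lost when either PPDO library was left out, whereas that of EFNA5 held in the 16 alternatives that tested it. EFNA4 had 11.13 and 12.2 CPM in PPDO and 15.4 and 15.05 CPM in ductal-like cells and did not pass (log2 fold change 0.07, SE 0.19, edgeR adjusted p = 0.806). Both groups of EFNA2 were under 0.5 CPM, with the fold change at -2.16 (edgeR adjusted p = 0.0132). EFNA2 passed the low-count filter only with its ductal-like counts.

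Both ephrins-B that could be tested were higher in PPDO. EFNB2, a ligand that marks arteries, had 43.9 and 66.4 CPM in PPDO and 16.1 and 5.16 CPM in the ductal-like sums (log2 fold change 2.77, SE 0.68, edgeR adjusted p = 0.0299). Its log2 fold change ran from 2.10 to 3.95 over the 16 alternatives that tested it, and its call was lost without either PPDO library. EFNB1 had 39.3 and 39.8 CPM in PPDO and 25.8 and 27.5 CPM in the ductal-like sums (log2 fold change 1.02, SE 0.15, edgeR adjusted p = 0.00648). The EFNB1 values lay closer together than those of EFNB2, and the groups of neither overlapped. EFNB3 had 3 and 4 UMIs in PPDO and 3 and 2 in ductal-like cells and was left out of the test as too low.

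Of the 5 EphB receptors, EPHB2 and EPHB1 were lower in PPDO and none was higher, beside 20.8% lower and 22.7% higher over all genes. EPHB2, a receptor of ephrins-B known for sorting of intestinal epithelial cells, had 0.276 and 0.225 CPM in PPDO and 2.42 and 2.00 CPM in the ductal-like sums (log2 fold change -2.71, SE 0.37, edgeR adjusted p = 0.00582). EPHB1 had 0.292 and 0.396 CPM in PPDO and 1.57 and 2.04 CPM in the ductal-like sums (log2 fold change -1.91, SE 0.36, edgeR adjusted p = 0.0144). Both are low-level values. Endocrine-like cells held 101 and 84.1 CPM of EPHB1 and 16.6 and 8.95 CPM of EPHB2, stellate-like cells of primary pancreas 1 held 18.6 CPM of EPHB2, and the part of free RNA in the ductal-like levels was not tested. EPHB3 had 15.9 and 13.8 CPM in PPDO and 16.7 and 10.7 CPM in ductal-like cells, and EPHB4, the venous receptor of EFNB2, had 17.0 and 16.7 CPM and 27.6 and 27.3 CPM. Neither passed (edgeR adjusted p = 0.24 and 0.271), although EPHB3 was called higher without primary pancreas 1 or the OSGIN1-led cluster and EPHB4 lower with library totals. EPHB6, a kinase-inactive receptor, had 1.07 and 0.869 CPM in PPDO and 1.2 and 1.24 CPM in ductal-like cells.

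Of the 7 class 3 semaphorins, the secreted group, 4 were higher in PPDO, 1 was lower and 2 did not pass. Over all genes, 22.7% were higher and 20.8% lower. SEMA3E, a ligand of plexin D1, had 28.6 and 9.97 CPM in PPDO and 0.231 and 2.00 CPM in the ductal-like sums (log2 fold change 4.70, SE 1.06, edgeR adjusted p = 0.024). SEMA3A, the collapsin that acts through NRP1, had 9.29 and 6.95 CPM in PPDO and 0.254 and 1.44 CPM in the ductal-like sums (log2 fold change 3.84, SE 0.75, edgeR adjusted p = 0.0163). For both genes the ductal-like sum of primary pancreas 2 was the higher one, and there the 15 endocrine markers summed to 7994 CPM, beside 139 CPM in primary pancreas 1. Their part in these values was not tested. The SEMA3E call was also lost with the replicate block.

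SEMA3F, which acts through NRP2, had 10.9 and 12.5 CPM in PPDO and 2.26 and 1.96 CPM in the ductal-like sums (log2 fold change 2.91, SE 0.27, edgeR adjusted p = 0.00226). SEMA3C, which promotes epithelial growth and vessel patterning, had 200 and 234 CPM in PPDO and 121 and 159 CPM in the ductal-like sums (log2 fold change 1.11, SE 0.17, edgeR adjusted p = 0.00768). The SEMA3C call was lost with library totals alone (log2 fold change 0.64) and without PPDO 2, while the SEMA3F call held. SEMA3G was the class 3 gene that fell, at 0.0498 and 0.0229 CPM in PPDO and 0.738 and 0.200 CPM in the ductal-like sums (log2 fold change -3.33, edgeR adjusted p = 0.031). These are 15 and 6 UMIs against 32 and 5, and SEMA3G passed the low-count filter only through the ductal-like counts. Endothelial-like cells had 96.7 and 66.4 CPM of SEMA3G, and the part of their free RNA was not tested. SEMA3B and SEMA3D did not pass and were under 3 CPM in all 4 sums. SEMA3D, SEMA3A and SEMA3E lie in this order on chromosome 9 in the RefSeq table of Sscrofa11.1, at chr9:95280637-95486109, chr9:95934937-96387950 and chr9:96682178-96941074.

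Class 4 semaphorins, membrane-bound ligands of B-type plexins, showed 3 higher, none lower and 3 that did not pass. The shares over all genes were 22.7% higher and 20.8% lower. SEMA4B had 37.6 and 51.2 CPM in PPDO and 24.0 and 31.2 CPM in the ductal-like sums (log2 fold change 1.16, SE 0.22, edgeR adjusted p = 0.0152), and the call was lost with library totals alone. SEMA4C had 4.33 and 4.81 CPM and 3.05 and 3.68 CPM (log2 fold change 0.91, SE 0.24, edgeR adjusted p = 0.0388), and this call was lost with library totals, with the replicate block and with thinned sums. SEMA4F was called at 3.40 and 2.81 CPM in PPDO against 0.508 and 0.960 CPM. SEMA4A, known in immune cells, had 17.0 and 13.8 CPM in PPDO and 17.7 and 12.3 CPM in ductal-like cells, and SEMA4D had 33.5 and 28.6 CPM and 51.2 and 48.3 CPM. Neither SEMA4A nor SEMA4D passed (edgeR adjusted p = 0.266 and 0.317), although SEMA4A was called higher without primary pancreas 1 or the OSGIN1-led cluster and SEMA4D lower with library totals. SEMA4G was at 6.79 to 13.2 CPM over all 4 sums.

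Classes 5 to 7 held 3 genes that were lower in PPDO and none that was higher, beside 20.8% lower and 22.7% higher over all genes. SEMA5A, a transmembrane semaphorin with thrombospondin repeats, had 27.1 and 20.3 CPM in PPDO and 192 and 173 CPM in the ductal-like sums (log2 fold change -2.51, SE 0.22, edgeR adjusted p = 0.0019). SEMA6A, a plexin A ligand, had 0.535 and 0.415 CPM in PPDO and 13.8 and 6.12 CPM in the ductal-like sums (log2 fold change -3.99, SE 0.57, edgeR adjusted p = 0.00677). SEMA6B had 0.359 and 0.202 CPM in PPDO and 4.29 and 5.92 CPM in the ductal-like sums (log2 fold change -3.72, SE 0.40, edgeR adjusted p = 0.00331). All 3 calls held in the 16 alternatives that tested each of them. Endothelial-like cells had 272 and 244 CPM of SEMA6A, and the 11 endothelial markers summed to 120 and 72.2 CPM in the ductal-like sums and to 76.4 and 65.8 CPM in PPDO. SEMA5A was at 872 CPM in Schwann-like cells of primary pancreas 1 and at 200 CPM in endocrine-like cells of primary pancreas 2. The part of RNA from these classes in the SEMA5A, SEMA6A and SEMA6B values was not tested. SEMA6D did not pass, at 37.3 and 27.1 CPM in PPDO and 29.3 and 75.1 CPM in ductal-like cells, and neither did SEMA6C, SEMA5B and SEMA7A.

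Both neuropilins, co-receptors of class 3 semaphorins and of vascular endothelial growth factor, were lower in PPDO. NRP1 had 0.834 and 2.18 CPM in PPDO and 13.7 and 20.8 CPM in the ductal-like sums (log2 fold change -3.03, SE 0.56, edgeR adjusted p = 0.0134). NRP2 had 40.8 and 43.3 CPM in PPDO and 112 and 140 CPM in the ductal-like sums (log2 fold change -1.12, SE 0.13, edgeR adjusted p = 0.00422). NRP1 was uneven over the ductal-like clusters, with 72.7 CPM in the one led by UNC13D and 8.16 and 14.1 CPM in the other clusters of that library. Without the UNC13D cluster both neuropilin calls held. Endothelial-like cells had 698.5 and 605 CPM of NRP1, and the part of their free RNA in the ductal-like level was not tested. NRP2 was even, at 108 to 149 CPM over the 5 ductal-like clusters, beside 27.1 and 9.40 CPM in immune-like cells.

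Of the 8 plexins, the signalling receptors of semaphorins, 2 were higher and 2 lower, beside 22.7% higher and 20.8% lower over all genes. No feature was named PLXNB2, so that B-type plexin was not followed. PLXNA2 had 47.1 and 40.3 CPM in PPDO and 13.5 and 10.4 CPM in the ductal-like sums (log2 fold change 2.30, SE 0.26, edgeR adjusted p = 0.00355). PLXNA1 had 15.97 and 16.3 CPM in PPDO and 11.4 and 13.4 CPM in the ductal-like sums (log2 fold change 0.84, SE 0.16, edgeR adjusted p = 0.0149), a call that was lost with library totals alone and without either PPDO library. PLXNA4 had 10.0 and 9.16 CPM in PPDO and 36.9 and 27.5 CPM in the ductal-like sums (log2 fold change -1.31, SE 0.26, edgeR adjusted p = 0.0174). PLXNB1, the receptor of SEMA4D, was also called lower, at 0.292 and 0.202 CPM against 1.13 and 0.80 CPM, and this call was lost with the replicate block and with thinned sums. PLXNA3, PLXNB3, PLXNC1 and PLXND1 did not pass and were under 7 CPM in all 4 sums. PLXND1 was called higher without primary pancreas 1, at resolution 1.0 and without the cluster led by UNC13D, and its log2 fold change ran from 0.64 to 3.58 around a value of 1.72. PLXNC1 was called lower without primary pancreas 2 (log2 fold change -1.49) and with library totals, PLXNA3 lower with library totals, and PLXNB3 higher with DESeq2.

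Genes that work beside these families were read in the same fit. Of 22 genes of the netrin and SLIT systems, 5 were higher, 7 lower and 10 did not pass, and of 24 tested cytoplasmic partners 8 were higher, 6 lower and 10 did not pass, beside 22.7% higher and 20.8% lower over all genes. FLRT1 had 6.77 and 4.31 CPM in PPDO and 0.531 and 0.200 CPM in the ductal-like sums (log2 fold change 4.26, edgeR adjusted p = 0.00642). FLRT2, a repulsive ligand of the netrin receptor UNC5D, had 37.8 and 32.8 CPM in PPDO and 1105 and 1667 CPM in the ductal-like sums (log2 fold change -4.82, SE 0.21, edgeR adjusted p = 0.000468). Neither gene's groups overlapped.

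NTN4, a basement membrane netrin, had 5.14 and 4.91 CPM in PPDO and 129 and 357 CPM in the ductal-like sums (log2 fold change -5.09, SE 0.49, edgeR adjusted p = 0.00246). NTN3 had 2 and 1 UMIs in PPDO and 14 and 12 in ductal-like cells. From pooled counts, the ductal-like level was 71.4 times that of PPDO. The exact binomial 95% interval was 21.9 to 369 and covers counting error only. With 1 primary library at a time, the ratio was 60.7 for primary pancreas 1 and 90.2 for primary pancreas 2. NTN3 passed the low-count filter only through its ductal-like counts, so its place among the lower genes is no support for a fall. MICAL1, an oxidoreductase downstream of plexins, had 5.21 and 7.40 CPM in PPDO and 0.554 and 0.680 CPM in the ductal-like sums (log2 fold change 3.82, SE 0.35, edgeR adjusted p = 0.00217). The partner genes, unlike the 54 guidance genes, were not left out of the genes used for clustering.

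Across the classes of primary pancreas, more guidance genes were highest in endothelial-like cells in both libraries than in any other class that could be ranked in both. Classes with at least 50 cells were ranked per library, and 40 of the 54 genes reached 10 CPM in the highest class of both libraries. Of these 40, 13 (32.5%) were highest in the endothelial-like class in both, beside 10.9% of the 11883 genes that met the same condition. The immune-like class held 5 (12.5%, beside 18.9% of all genes), the endocrine-like class 4 (10%, beside 6.16%), the ductal-like class 2 (5%, beside 19.4%) and the acinar-like class 0 (beside 2.1%). These are descriptions of clusters without a test, and stellate-like and Schwann-like cells could not be ranked in primary pancreas 2, which held 48 and 1 of them. In primary pancreas 1 alone, the endothelial-like class was highest for 13 of the 40 genes (beside 13.8% of all genes), the Schwann-like class for 11 (beside 17.3%) and the stellate-like class for 3 (beside 12.1%). With classes from 40 cells up, the endothelial-like class led for 12 of 42 genes (beside 9.62% of all genes) and the stellate-like class for 3 (beside 10.4%).

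**Figure D3:**
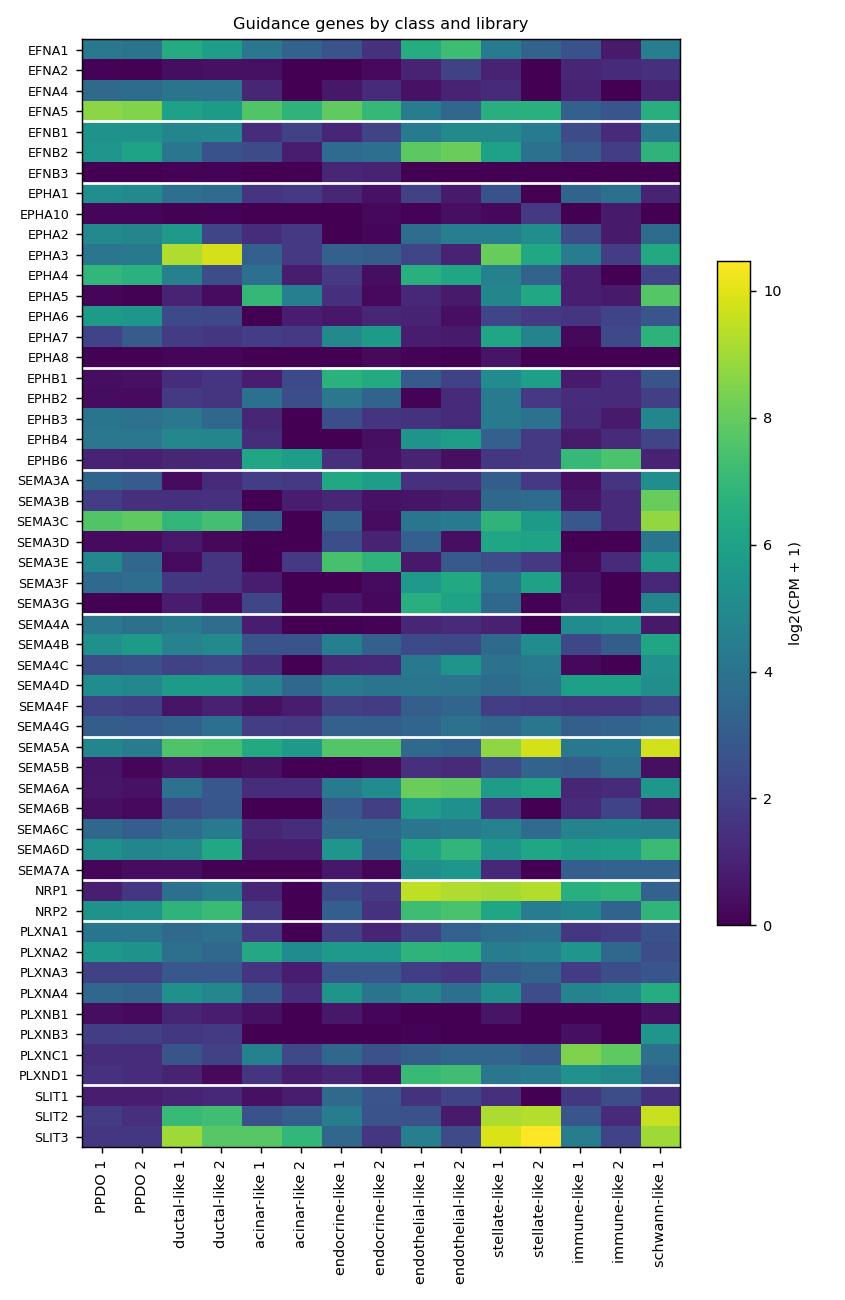
Guidance genes (rows, with white lines between roles) in PPDO and in the primary classes with at least 40 cells in the library, as log2(CPM + 1) from UMIs summed per class and library. NRP1, EFNB2, SEMA6A and PLXND1 are bright in the endothelial-like columns (NRP1 also in stellate-like cells), EPHA3 in the ductal-like columns, PLXNC1 in the immune-like columns, and SLIT2 and SLIT3 in the stellate-like and Schwann-like columns.

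NRP1 had 699 and 605 CPM in endothelial-like cells of primary pancreas 1 and 2, while stellate-like cells had 532 CPM in primary pancreas 1 and 617 CPM in the 48 cells of primary pancreas 2. Of these 48 cells, 41 were in the cluster led by ITIH4, MYH11 and ACTA2. EFNB2 had 225 and 271 CPM and its receptor EPHB4 had 41.3 and 57.5 CPM. PLXND1, the receptor of SEMA3E, had 134 and 154 CPM, while no other class passed 39 CPM. SEMA6A had 272 and 244 CPM, EFNA1 89.8 and 146 CPM, PLXNA2 111 and 102 CPM, and EPHA4 98.3 and 71.9 CPM. For EFNA1 the ductal-like level was close in primary pancreas 1, at 86.8 CPM, but not in primary pancreas 2, at 55.3 CPM. The unnamed TCN1-led cluster of primary pancreas 1, described at the end, had a SEMA6A level similar to that of endothelial-like cells. SEMA3F, SEMA3G, SEMA6B, SEMA7A and NRP2 completed the list.

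Within endothelial-like cells, the clusters differed in these genes. SEMA3G was at 588 CPM in a cluster of primary pancreas 1 whose first leading gene was SEMA3G itself, with CLDN5, GJA5 and VEGFC among the others, and at 21.8 CPM or less in the other endothelial-like clusters of that library. The same cluster had 139 CPM of NRP1 and 12.7 CPM of NRP2, beside 1007 and 196 CPM in the cluster led by DYSF and FLT1, and had 352 CPM of EFNB2. GJA5 and EFNB2 are known arterial genes. SEMA6A was highest, at 483 CPM, in the cluster led by TLL1 and SELP, which marks venules, where SEMA7A was at 5.85 CPM. The cluster of primary pancreas 2 led by BTNL9 and SOX18 had 735 CPM of NRP1 and 281 CPM of EFNB2, beside 1007 and 237 CPM in the DYSF-led cluster.

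**Figure D4:**
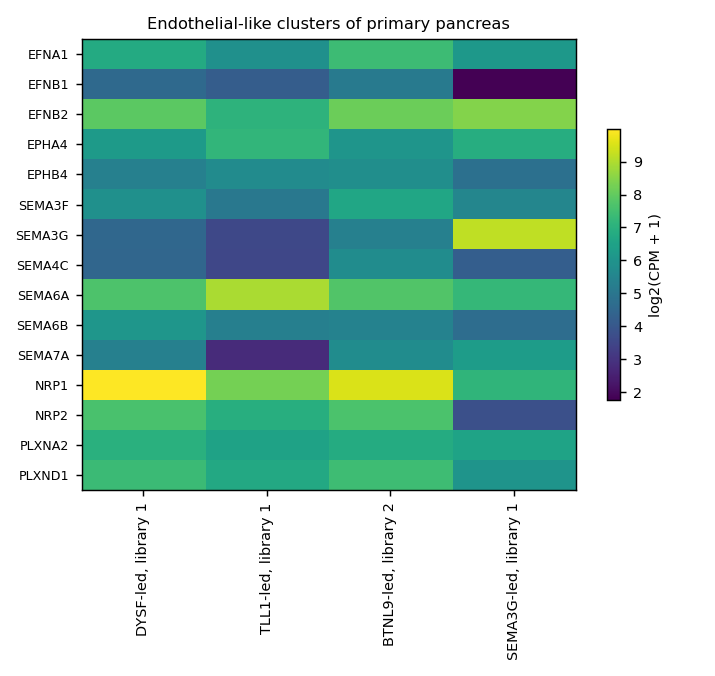
Guidance genes in the endothelial-like clusters with at least 50 cells in a library, as log2(CPM + 1), each column named by its first leading gene and library. SEMA3G is brightest in the SEMA3G-led cluster (588 CPM), which is darkest for NRP2 and EFNB1, and NRP1 is brightest in the DYSF-led cluster (1007 CPM).

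Endocrine-like cells were highest for SEMA3A (75.1 and 55.7 CPM in primary pancreas 1 and 2), SEMA3E (169 and 111 CPM), EPHB1 (101 and 84.1 CPM) and EFNA5 (240 and 124 CPM). INS took 37.8% and 52.8% of the UMIs of these cells, which lowers the CPM of every other gene in them. In primary pancreas 2 the cluster led by SST, GCG and PPY had 297 CPM of SEMA3E, 163 CPM of SEMA3A and 270 CPM of EPHB1. The INS-rich cluster led by CHGA and SCG2 had 127, 65.6 and 94.9 CPM of the same genes. Whether this gap exceeds what the INS share produces was not tested.

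Immune-like cells were highest for PLXNC1 (351 and 236 CPM), SEMA4A, SEMA4D, SEMA6C and EPHB6. EPHB6 was at 422 and 515 CPM in the cluster led by GNLY and KLRK1, which holds T and natural killer genes, and at 1.29 and 1.33 CPM in the cluster led by CD300C and AIF1. PLXNC1 showed the reverse, with 32.1 and 46.5 CPM in the GNLY-led cluster and 334 and 288 CPM in the CD300C-led cluster. SEMA4D, a T cell semaphorin, was at 130 and 136 CPM in the GNLY-led cluster and at 34.7 and 18.6 CPM in the CD300C-led cluster. The third immune-like cluster, led by CCL8 and IL1A and with 204 cells in primary pancreas 1, had 581 CPM of PLXNC1, 3.17 CPM of EPHB6 and 23.8 CPM of SEMA4D.

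Schwann-like cells, counted in primary pancreas 1 only, carried SEMA3B (260 CPM), SEMA3C (442 CPM), SEMA5A (872 CPM), SLIT2 (772 CPM), EPHA5 (209 CPM) and PLXNB3 (43.4 CPM). The same sum held 2651 CPM of the 11 stellate markers and 1056 CPM of the 9 ductal markers, and their part in these values was not tested. Acinar-like cells, of which there were 257 and 56, had 71.1 and 56.2 CPM of EPHB6.

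Across PPDO, 22 guidance genes reached 10 CPM in both libraries, and they were compared over 8 clusters with at least 50 cells in each library. The clusters are called here by leading genes. Of the 22 genes, 13 were highest in the same cluster in both libraries, beside 66.4% of the 8180 genes at that level, and 13 were lowest in the same cluster, beside 57.1%. Both counts of guidance genes lie close to these shares.

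SEMA3C was at 470 and 524 CPM in the cluster led by TIMP3, ADM and EGLN1, which holds hypoxia response genes, and at 345 and 320 CPM in the cluster led by SPP1 and CFD. The other 6 clusters lay between 104 and 187 CPM. EFNA5 was at 641 and 715 CPM in the SPP1-led cluster and at 264 and 210 CPM in the cluster led by IGFBP6 and VWC2. The gap was the same way in both libraries for both genes.

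EPHA1 was at 76.8 and 79.5 CPM in the cluster led by PLXDC2, PLA2G4E and ABCA12, which holds genes of a cornifying epithelium, and at 15.04 to 37.1 CPM in the other 7 clusters. EPHA6 was lowest in that cluster, at 18.4 and 15.2 CPM. SEMA5A was at 61.5 and 41.8 CPM in the cluster led by CXCL14, HMCN1 and KLHL29, and at 3.34 and 4.16 CPM in the SPP1-led cluster. NRP2 was highest in the cluster led by DTL, a replication gene, at 52.9 and 56.2 CPM. At Leiden resolution 1.0, with 17 clusters, EPHA1 stayed highest in a cluster led by SPINK5, KLK7 and TPRG1 (106 and 126 CPM) and EFNA5 in the SPP1-led cluster (624 and 695 CPM). SEMA5A was highest there in the cluster led by NEK10 and CDH13 in both libraries (87.6 and 45.3 CPM). NRP2 no longer had a common highest cluster, with 52.8 CPM in the DTL-led cluster of PPDO 1 and 61.0 CPM in the CXCL14-led cluster of PPDO 2. SEMA3C had no common highest cluster either.

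**Figure D5:**
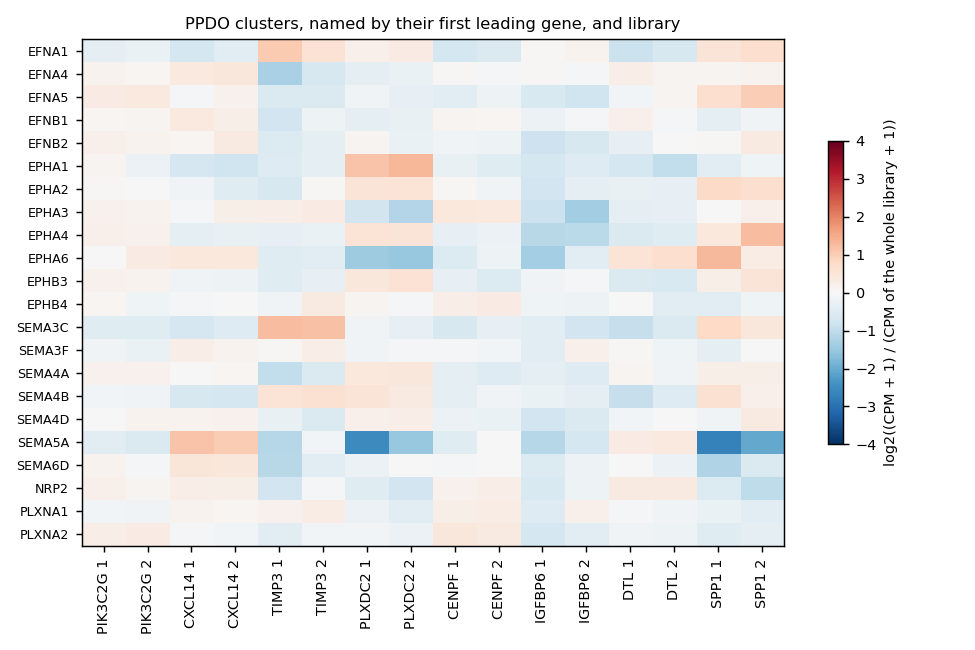
Guidance genes at 10 CPM or more in both PPDO libraries, as log2 of the ratio of CPM in a cluster to CPM in the whole library, with 1 added to each, for the 8 clusters with at least 50 cells in each library, named by first leading gene. SEMA5A is lowest in the SPP1-led and PLXDC2-led clusters, and EPHA1 is highest in the PLXDC2-led cluster in both libraries.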

How the data were processed

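Libraries were made with the Chromium 3' v3.1 kit from sorted live cells. The authors counted UMIs with Cell Ranger 7.1.0 against an in-house pig annotation; the submitters' processing notes name Sscrofa11.1. The deposited values are raw counts per feature and barcode, and the deposited barcode and feature lists hold names only (other values). SoupX, used by the authors later, is not in these counts, and whether intronic reads were counted is not given in the sources used here. Strand use in counting is not given either, so reads of overlapping antisense genes cannot be told apart.

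Features of a gene (iso and 3' extensions) were summed. Of the 54 guidance genes, 43 had only an iso feature, 11 a plain feature and 48 an extension. Cells were kept by the study's limits (at most 9000 features, at most 3% mitochondrial UMIs in PPDO and under 8% in primary cells, over 400 and 800 features in primary pancreas 1 and 2, and over 3000 UMIs in primary pancreas 2, of which 55.6% of barcodes were kept). The study set a different feature minimum for each PPDO line (600 and 1000), and 1000 was used for both, since no label ties a library to a line. Scrublet scores over 0.25 and 0.15 removed 89 and 154 primary barcodes. Title replicates 1 and 2 of primary pancreas were assumed to be samples 1 and 2 of the methods. Scanpy 1.11.5 and leidenalg 0.10.2 clustered cells (2000 variable genes, 20 components, 15 exact neighbours, resolution 0.5) without the guidance genes. Genes were scaled within each library for PPDO but not for primary cells. Clusters were named from fixed markers. Components and neighbour weights were rounded so that clusters repeat.

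UMIs were summed per library and class, and PPDO and ductal-like sums were compared with edgeR 4.0.16 (TMM, filterByExpr, glmQLFit, glmQLFTest, two-sided, adjusted p under 0.05). A run on simulated data used a smaller spread than these libraries show and changed only well-counted genes. It therefore does not vouch for the calls made here. The SE is the absolute log2 fold change over the square root of F. Alternatives included DESeq2 1.42.0. An exact permutation test of 2 against 2 cannot go below p = 0.333. Genes were named by role: the 4 with the largest fold change among those called, and those at 10 CPM or more in both groups that were not called; others are named with short values, after they were seen. For partner genes, the 4 largest folds each way were named. The guidance genes, the lists and these rules were chosen with earlier results of these data known, so no pattern among them is independent support. No sequences are printed. A comparison between Schwann-like clusters is not reported here.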

Additional observations from a re-analysis of the deposited data

How the results depend on the processing

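Of the 30 guidance genes called, 14 kept call and direction in all of the 17 alternatives that tested them, and 24 in those that left out no library. Leaving out each library in turn gave 7 to 18 genes higher, 8 to 17 lower and 17 to 27 partner genes, with 10 higher and 9 lower without PPDO 1 and 7 higher and 8 lower without PPDO 2. These fits leave 1 sample in an arm, which is assumed to vary like the other group. A smaller share of all genes was called without either PPDO library, as given above, but not clearly so without either primary library. Why single calls were lost was not tested. Leaving out genes over 2 times higher in another class left 16 guidance genes to test, with 4 higher, 4 lower and 9 partner genes. Of all 11819 genes in that fit, 3096 were higher and 2863 lower. With library totals in place of TMM factors, 11 were higher and 20 lower, beside 3265 higher and 6927 lower of all 23531 genes. With the replicate block, 13 were higher, 15 lower and 26 partner genes were called, beside 4336 higher and 3929 lower of all 23531 genes. Over all genes, the deviations of same-numbered libraries had a correlation of -0.0029. This value cannot exclude a factor shared by same-numbered libraries at some genes, which was not tested. Low counts limit the genes under 1 CPM.

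Among genes that were not called, some changed sign, and the cause was not tested. Over the libraries left out, the log2 fold change ran from -0.083 to 0.16 for EFNA4, -0.45 to 3.53 for EPHA2, -0.0079 to 0.21 for EPHB6, -1.03 to 1.14 for SEMA3D, -0.35 to 0.059 for SEMA4G, -1.37 to 1.17 for SEMA5B, -0.70 to 0.45 for SEMA6D and -0.38 to 2.71 for SEMA7A. Thinned sums gave -0.028 for EFNA4, -0.24 for EPHB6 and -0.0084 for SEMA5B. Library totals gave -0.39 for EFNA4, -0.33 for EPHB6, -0.32 for SEMA5B and -0.044 for SEMA7A. Keeping doublets gave 0.26 for SEMA3D, -0.21 for SEMA5B and -0.018 for SEMA7A. SEMA3D was 1.04 with guidance genes used in clustering, 0.82 at resolution 1.0 and 1.09 without the cluster led by UNC13D. SEMA7A was -0.40 without the cluster led by OSGIN1, and SEMA4G 0.047 where genes higher in another class were left out. Taking the plain feature alone was not run, since 43 genes have only an iso feature, and no ductal-like cluster held 5% of both primary libraries.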

Other observations

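Clusters of primary cells without a name also carried guidance genes. In primary pancreas 2, a cluster of 343 cells led by SPHKAP had 337 CPM of EFNA5 and 59.1 CPM of EPHB6. In primary pancreas 1, a cluster of 149 cells led by TCN1, whose best marker list was ductal, had 265 CPM of SEMA6A, 196 CPM of EPHA3 and 73.2 CPM of EPHA2, and a cluster of 124 cells led by CXCL9 and FABP4 had 308 CPM of NRP1 and 95.6 CPM of EFNB2. The median UMI count of these last clusters was 1371 and 1297.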
